A study of Arabidopsis thaliana with 12 samples.

Results

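The genes described here are those of the *Arabidopsis thaliana* chloroplast genome that encode subunits of photosystem I, photosystem II, the cytochrome b6f complex and the ATP synthase, together with *rbcL*, the gene of the large subunit of the carbon-fixing enzyme Rubisco. The rule that defines them uses names and genome only and takes single-gene probe sets whose locus belongs to the chloroplast genome and whose symbol begins with psa, psb, pet or atp or is *rbcL*. The genes were chosen with earlier results of these data known, so counts set beside all probe sets are description only. The rule found 33 genes among 22810 probe sets, which were 33 of the 33 such genes in the gene table, and each had 1 probe set. They comprised 5 genes of photosystem I, 15 of photosystem II, 6 of the cytochrome b6f complex, 6 of the ATP synthase and *rbcL*. All 33 passed the filter on low signals and were tested.

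Total RNA of whole seedlings was measured on 12 one-colour Affymetrix arrays. The seedlings were wild-type plants of ecotype Columbia (WT) or carried *arf2-6*, a mutant allele of *ARF2*. That gene encodes an auxin response factor, a transcription factor that binds promoters of auxin-regulated genes. All seedlings were 7 days old and had grown in shaken liquid culture (1.5% sucrose, days of 16 h light and 8 h dark). A treatment of 2 h at 24 °C followed, with 5 µM of the natural auxin IAA (indole-3-acetic acid) or with its solvent, ethanol, alone. This gave 4 groups of 3 arrays each, named WT_control, WT_IAA, arf2-6_control and arf2-6_IAA. Only 1 mutant allele was studied.

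In photosynthesis, photosystem II takes electrons from water, the cytochrome b6f complex passes them on through plastocyanin, and photosystem I delivers them to ferredoxin. The proton gradient built along the way drives the ATP synthase, and Rubisco uses the products to fix carbon dioxide. Each of these complexes is a mosaic, with core subunits encoded in the chloroplast and further subunits encoded in the nucleus. Chloroplast genes are mostly transcribed as polycistronic units, so that neighbouring genes share transcripts and are not independent of each other. By textbook operon structure, the 33 genes belong to 15 transcription units. Chloroplast messages, unlike nuclear ones, carry no stable poly(A) tail, and the priming used to label the RNA here is not stated in the labels.

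The values were log2 signals that reached no lower than 5.64, a signal of 50, and 1 of the 396 values of the 33 genes lay at this floor (*atpI* on WT_IAA array 1). Array medians ranged from 6.16 to 6.22 log2. Among 11 measured nuclear photosynthesis genes, *PSAE1*, a nuclear subunit of photosystem I, read 12.89 ± 0.05 and *RCA*, Rubisco activase, 12.43 ± 0.08 in WT_control (mean ± SD, n = 3). The lowest of them there were *LHCB4.3* at 7.51 and *ATPC2* at 5.72, near the floor. The transcript of *ARF2* itself was not analysed here, so the genotype labels were taken as given. The labels do not say whether the replicates came from separate cultures, so p-values measure the spread between these arrays, which may be technical. In whole seedlings, differences in the number or size of chloroplasts, in the share of green cells and in RNA per chloroplast cannot be told apart. Titles of the wild-type arrays carry a tag that no *arf2-6* title has, and the labels do not explain it. Any difference in handling between the genotypes therefore cannot be told apart from the genotype itself. Signals of different probe sets are not comparable with each other, and all comparisons below are within a gene.

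The 33 genes tended to lie high or low on the same arrays, and the arrays they were high on were mostly those of *arf2-6*. When each gene was expressed relative to its own mean over the 12 arrays, the median over the 33 genes was -0.45, 0.07 and -0.17 log2 on WT_control arrays 1, 2 and 3. It was -0.45, -0.13 and -0.39 on the WT_IAA arrays, 0.09, 0.13 and 0.45 on the arf2-6_control arrays and 0.12, 0.25 and 0.43 on the arf2-6_IAA arrays. All 6 *arf2-6* arrays therefore lay above all 6 wild-type arrays, and the closest pair was WT_control 2 and arf2-6_control 1. On arf2-6_IAA array 3, 33 of the 33 genes were above their own mean, and on WT_IAA array 3 none was. On WT_control array 2, 19 genes were above their mean, against 1 on WT_control array 1. Arrays of one group thus differed in level across many of the genes together. The median over all 14215 tested probe sets stayed between -0.03 and 0.03 on the 12 arrays.

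**Figure D1:**
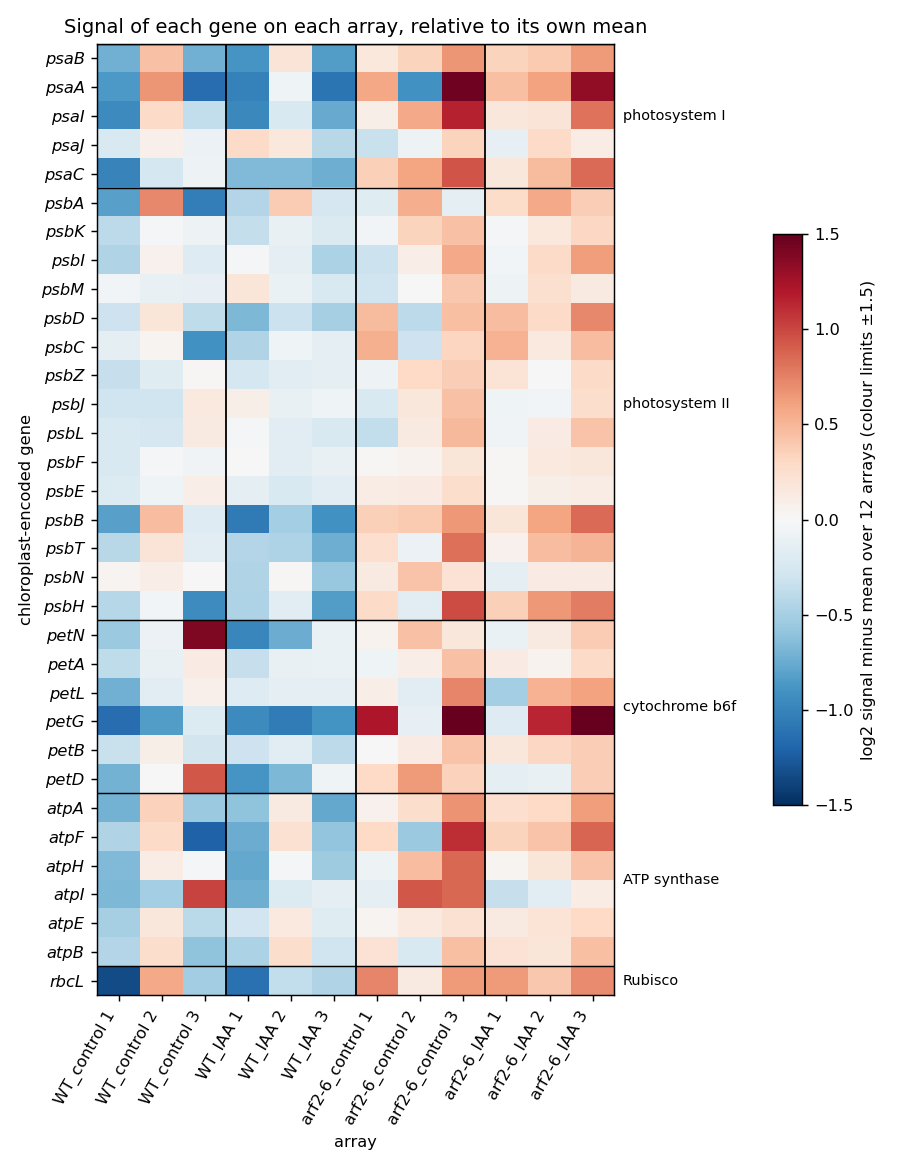
Log2 signal of the 33 chloroplast-encoded genes (rows, by complex) on the 12 arrays (columns), each relative to the gene's own mean over the 12 arrays, with the colour scale limited at 1.5 either way. The 6 *arf2-6* columns on the right are mostly red, most of all arf2-6_control 3 and arf2-6_IAA 3, while WT_control 1, WT_IAA 1 and WT_IAA 3 are mostly blue.

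With IAA present, all 33 genes had a higher mean signal in *arf2-6* than in the wild type, against 49.0% of all tested probe sets. The median difference was 0.58 log2, and the differences ran from 0.08 (*psaJ*) to 1.79 (*petG*). Of the 33 genes, 7 were called higher and none lower (limma, adjusted p under 0.05 with Benjamini-Hochberg adjustment over all 14215 tested probe sets), where 2.93% of all tested probe sets were called higher and 5.86% lower. A further 13 had an unadjusted p under 0.05. The share of all tested probe sets with such a p is not given here or below, so these counts are description only. The 3 *arf2-6* values lay above the 3 wild-type values for 21 of the 33 genes, against 17.8% of all tested probe sets. The 7 called genes were *psaC* of photosystem I, *psbB*, *psbD*, *psbT* and *psbH* of photosystem II, and *petB* and *petG* of the cytochrome b6f complex. None of the 6 ATP synthase genes was called (limma), and 2 of them, *atpA* and *atpH*, had an unadjusted p under 0.05. The count of 7 depended on single arrays: it was 0 without arf2-6_IAA 3, 1 without WT_IAA 2, 2 without WT_IAA 1 or WT_IAA 3, 3 without arf2-6_IAA 1 or arf2-6_IAA 2, and 4 without arf2-6_control 1. Calls over all tested probe sets fell as well, from 1249 to 350 without arf2-6_IAA 3 and to 325 without WT_IAA 2. Over such omissions the median difference of the 33 genes was lowest without WT_IAA 1, at 0.48, and highest without WT_IAA 2, at 0.67. With no filter on low signals, *psaC* alone of the 7 stayed called. *petG* was also lost when only the IAA arrays were fitted (limma adjusted p = 0.0714), and *psbH* with a constant variance prior (limma adjusted p = 0.0512).

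**Figure D2:**
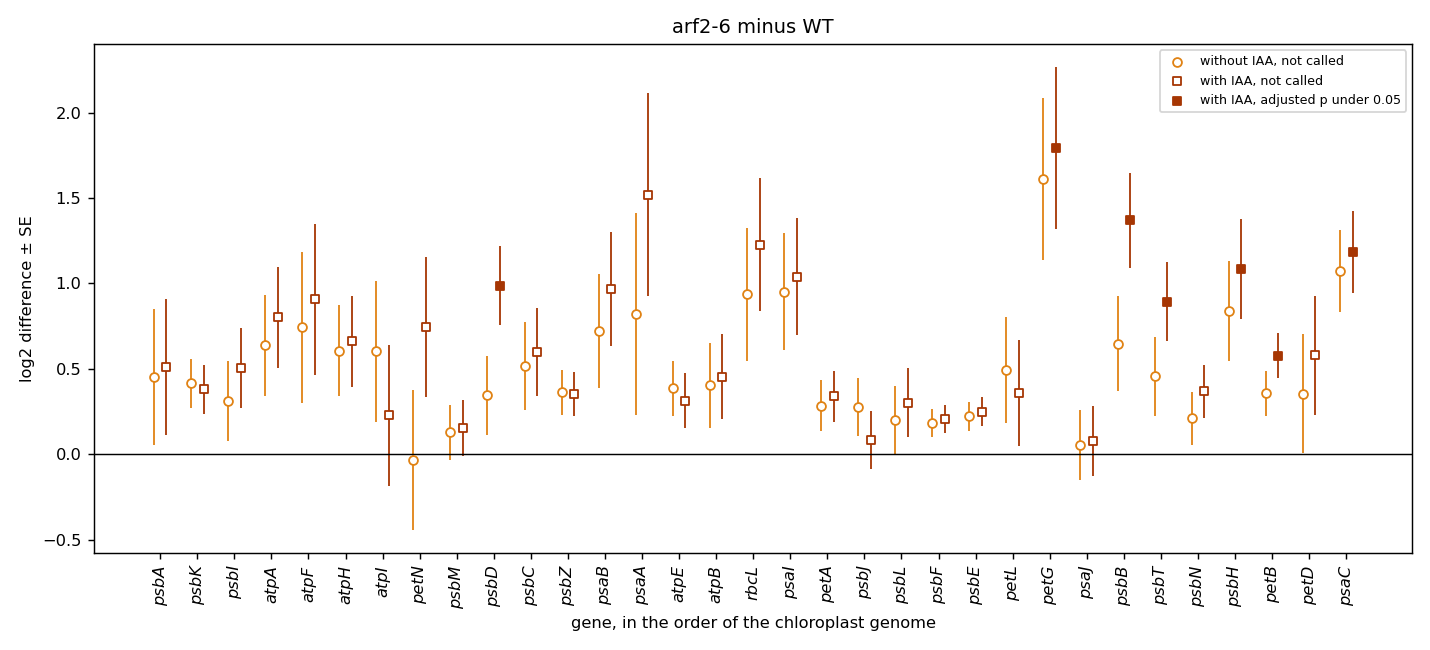
Difference in log2 signal between *arf2-6* and the wild type for the 33 genes, in their order along the chloroplast genome, without IAA (circles) and with IAA (squares); bars are ± 1 standard error and filled symbols mark an adjusted p under 0.05. All squares lie above 0, from 0.08 for *psaJ* to 1.79 for *petG*, and 7 of them are filled, while no circle is filled.

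Averaged over both treatments, 16 of the 33 genes were called higher in *arf2-6* and none lower, where 7.15% of all tested probe sets were called higher and 8.72% lower. All 33 differences were above 0, against 52.4% of all tested probe sets, with a median of 0.47 log2 and a range of 0.07 to 1.70. This average uses the same arrays as the comparison with IAA and adds the control arrays, so the calls are not independent of each other. The 16 were the 7 genes above with *psaB*, *psaI*, *psbE*, *psbF*, *psbK*, *psbZ*, *atpA*, *atpH* and *rbcL*. For 3 of them, *psaC*, *petG* and *psbF*, all 6 *arf2-6* values lay above all 6 wild-type values, as for 1.94% of all tested probe sets. The calls of *psaC*, *petG*, *psbB*, *psbH* and *petB* held with any 1 of the 12 arrays left out. The count fell to 5 without arf2-6_IAA 3, 7 without arf2-6_control 3, 9 without WT_control 1 and 10 without WT_IAA 1, and was 6 with no filter on low signals. Over omissions of 1 array the median averaged difference was lowest without WT_control 1, at 0.37, and highest without WT_control 2, at 0.53.

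Among the photosystem I genes, *psaC* stood out most clearly. It encodes the iron-sulfur subunit that hands electrons to ferredoxin, and it lies in a long unit with genes of the NDH complex. Its log2 signal was 7.29, 8.02 and 8.21 on the WT_control arrays, 7.62, 7.62 and 7.55 with IAA, 8.64, 8.88 and 9.22 on the arf2-6_control arrays and 8.45, 8.76 and 9.13 with IAA. Every *arf2-6* array lay above every wild-type array. With IAA, *psaC* was higher in *arf2-6* by 1.18 log2 (SE 0.24, limma adjusted p = 0.0145), a 2.27-fold difference. Over both treatments it was higher by 1.13 (SE 0.17, limma adjusted p = 0.00213). The call with IAA ended without WT_IAA 2 or without arf2-6_IAA 3, with an adjusted p of at most 0.0732.

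The reaction centre of photosystem I is built from the products of *psaA* and *psaB*, which are neighbours in 1 unit. For *psaB*, the signal was 10.06, 11.23 and 10.07 on the WT_control arrays, 9.91, 10.98 and 9.95 with IAA, 10.95, 11.12 and 11.45 on the arf2-6_control arrays and 11.12, 11.18 and 11.43 with IAA. Array 2 of each wild-type group reached the range of the mutant arrays, and the other wild-type arrays lay about 1 log2 lower. The averaged difference was 0.84 (SE 0.24, limma adjusted p = 0.0335). It was called under few omissions: leaving out any array other than WT_control 2, WT_IAA 2 and arf2-6_control 2 ended the call. *psaA* read 8.35, 9.88 and 8.08 on the WT_control arrays, 8.20, 9.15 and 8.12 with IAA, 9.80, 8.30 and 10.67 on the arf2-6_control arrays and 9.67, 9.81 and 10.54 with IAA. It had the same high wild-type arrays as *psaB*, and arf2-6_control 2 lay at the level of the low wild-type arrays. Its difference with IAA was among the larger ones, at 1.52 (SE 0.59), yet was not called (limma adjusted p = 0.143), nor was the averaged one of 1.17 (limma adjusted p = 0.0828).

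The small membrane subunits of photosystem I differed from each other. *psaI* was at 8.39, 9.63 and 8.97 on the WT_control arrays, 8.38, 9.12 and 8.60 with IAA, 9.43, 9.92 and 10.50 on the arf2-6_control arrays and 9.52, 9.54 and 10.16 with IAA. Only WT_control 2 overlapped the mutant arrays. The averaged difference was 1.00 (SE 0.24, limma adjusted p = 0.0187), and the call ended without arf2-6_IAA 3. *psaJ*, between 10.74 and 11.48 on all 12 arrays, gave the smallest averaged difference of the 33 genes, 0.07 (SE 0.14, limma adjusted p = 0.799). It shares a unit with *petG*, which gave the largest.

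**Figure D3:**
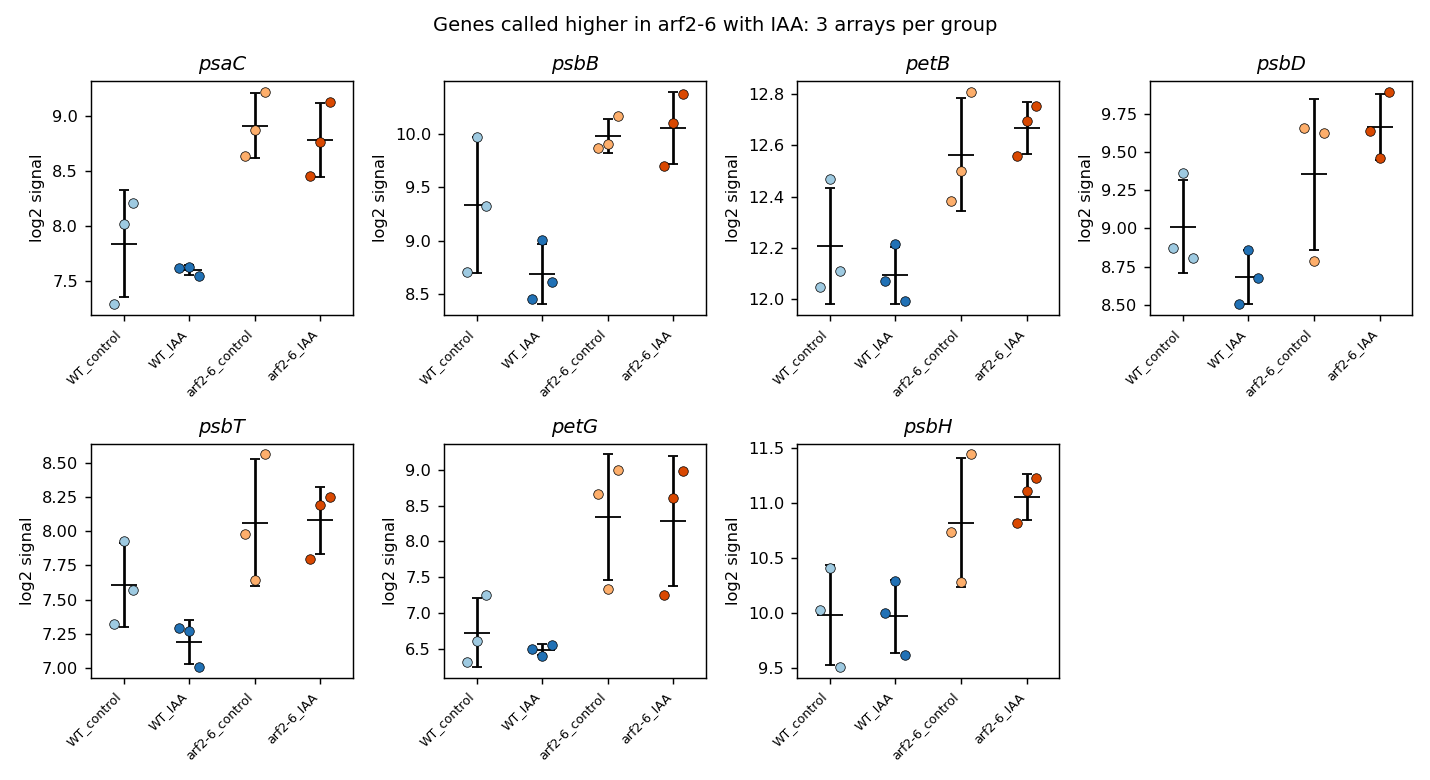
Log2 signal on each of the 12 arrays (points) of the 7 genes called higher in *arf2-6* with IAA, with the mean (line) and ± 1 SD (bars) of the 3 arrays of a group; the vertical axes differ between panels and do not start at 0. In every panel the 3 arf2-6_IAA points lie above the 3 WT_IAA points, and the control groups overlap in all panels but those of *psaC* and *petG*.

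Photosystem II contributed 4 of the 7 calls with IAA and 8 of the 16 averaged ones, out of 15 genes. *psbB* encodes the inner antenna protein CP47. Its signal was 8.71, 9.98 and 9.32 on the WT_control arrays, 8.45, 9.01 and 8.61 with IAA, 9.87, 9.91 and 10.17 on the arf2-6_control arrays and 9.70, 10.11 and 10.37 with IAA. Only WT_control 2 reached the mutant range. With IAA the difference was 1.37 (SE 0.28, limma adjusted p = 0.0147), a 2.58-fold difference, and over both treatments it was 1.01 (SE 0.20, limma adjusted p = 0.00728). Leaving out arf2-6_IAA 3 ended the call with IAA, at an adjusted p of 0.0767.

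*psbT* and *psbH*, a small subunit and a small phosphoprotein of photosystem II, follow *psbB* in the same unit. *psbT* read 7.32, 7.93 and 7.57 on the WT_control arrays, 7.29, 7.27 and 7.01 with IAA, 7.98, 7.64 and 8.56 on the arf2-6_control arrays and 7.80, 8.20 and 8.25 with IAA. *psbH* read 10.02, 10.41 and 9.51 on the WT_control arrays, 9.99, 10.29 and 9.62 with IAA, 10.74, 10.28 and 11.44 on the arf2-6_control arrays and 10.82, 11.11 and 11.23 with IAA. The IAA-treated groups did not overlap for either gene, while arf2-6_control 2 fell into the wild-type range for both. With IAA the differences were 0.89 for *psbT* (SE 0.23, limma adjusted p = 0.0377) and 1.08 for *psbH* (SE 0.29, limma adjusted p = 0.0439). The averaged differences were 0.67 (limma adjusted p = 0.0185) and 0.96 (limma adjusted p = 0.0113). The calls with IAA held only without WT_control 2, arf2-6_control 2 or arf2-6_control 3, and also without WT_control 1 for *psbT* and WT_control 3 for *psbH*. The other 8 omissions ended them, and omitting arf2-6_IAA 3 ended the averaged call of *psbT*.

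*psbD* encodes D2, which with D1 forms the reaction centre of photosystem II. It read 8.87, 9.36 and 8.80 on the WT_control arrays, 8.50, 8.86 and 8.68 with IAA, 9.66, 8.79 and 9.63 on the arf2-6_control arrays and 9.64, 9.46 and 9.90 with IAA. With IAA the groups did not overlap, and without it arf2-6_control 2 lay below all 3 WT_control arrays. The difference with IAA was 0.99 (SE 0.23, limma adjusted p = 0.0259) and the averaged one 0.67 (SE 0.16, limma adjusted p = 0.0194). The call with IAA ended without WT_IAA 1, 2 or 3 or arf2-6_IAA 1 or 3. The averaged call ended without WT_control 1, arf2-6_control 1, arf2-6_control 3 or arf2-6_IAA 3. Its unit neighbour *psbC*, the gene of the antenna protein CP43, had an averaged difference of 0.56 (SE 0.18, limma adjusted p = 0.0607). *psbA*, the gene of D1, spread from 9.14 to 10.90 on the wild-type arrays and from 10.00 to 10.75 on the mutant arrays. Its averaged difference was 0.48 (SE 0.28, limma adjusted p = 0.275).

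The other called genes of photosystem II changed little, with small errors. *psbE* and *psbF* encode the subunits of its cytochrome b559 and share a unit with *psbL* and *psbJ*. *psbE* read 11.39, 11.52 and 11.68 on the WT_control arrays, 11.45, 11.36 and 11.43 with IAA, 11.70, 11.71 and 11.85 on the arf2-6_control arrays and 11.61, 11.68 and 11.70 with IAA. *psbF* read 11.97, 12.16 and 12.15 on the WT_control arrays, 12.19, 12.03 and 12.09 with IAA, 12.21, 12.25 and 12.37 on the arf2-6_control arrays and 12.21, 12.35 and 12.37 with IAA. Apart from WT_control 3 for *psbE*, the mutant arrays lay above the wild-type ones. Their averaged differences were 0.24 (SE 0.06, limma adjusted p = 0.0203) and 0.20 (SE 0.06, limma adjusted p = 0.0415). The call of *psbE* ended without WT_IAA 2, arf2-6_control 3 or arf2-6_IAA 3. That of *psbF* ended without WT_control 1, WT_IAA 2, WT_IAA 3, arf2-6_control 1, arf2-6_control 3, arf2-6_IAA 2 or arf2-6_IAA 3, and after quantile normalization (0.12, limma adjusted p = 0.117) or median centring (limma adjusted p = 0.0827). *psbL* and *psbJ* were at 0.25 and 0.18 (limma adjusted p = 0.261 and 0.353).

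*psbK* and *psbZ* encode further small subunits. *psbK* read 10.92, 11.28 and 11.23 on the WT_control arrays, 10.96, 11.20 and 11.09 with IAA, 11.28, 11.65 and 11.75 on the arf2-6_control arrays and 11.28, 11.48 and 11.63 with IAA. *psbZ* read 10.19, 10.36 and 10.56 on the WT_control arrays, 10.26, 10.37 and 10.39 with IAA, 10.45, 10.84 and 10.90 on the arf2-6_control arrays and 10.74, 10.52 and 10.82 with IAA. The genotypes overlapped narrowly for both. The averaged differences were 0.40 (SE 0.10, limma adjusted p = 0.0222) and 0.36 (SE 0.09, limma adjusted p = 0.0244). The call of *psbK* ended without WT_control 1, WT_IAA 1, arf2-6_control 3 or arf2-6_IAA 3, and that of *psbZ* without these arrays, WT_IAA 2 or arf2-6_IAA 1. Of the remaining photosystem II genes, *psbI*, *psbM* and *psbN* had averaged differences of 0.41, 0.14 and 0.29 and were not called (limma adjusted p = 0.122, 0.452 and 0.0972). *psbN* lies on the strand opposite to the *psbB* unit, and its product acts in photosystem II assembly in tobacco.

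In the cytochrome b6f complex, *petG*, which encodes a small subunit, differed most between the genotypes of all 33 genes. It read 6.31, 6.62 and 7.25 on the WT_control arrays, 6.51, 6.40 and 6.56 with IAA, 8.67, 7.34 and 9.002 on the arf2-6_control arrays and 7.26, 8.60 and 8.98 with IAA. The highest wild-type array, WT_control 3, lay just below the lowest mutant array, arf2-6_IAA 1. The 6 mutant values fell into 4 near 9 log2 and 2 near 7, the low ones being arf2-6_control 2 and arf2-6_IAA 1. The difference with IAA was 1.79 (SE 0.47, limma adjusted p = 0.0400), a 3.46-fold difference. Over both treatments it was 1.70 (SE 0.34, limma adjusted p = 0.00757). The call with IAA held without WT_control 3, arf2-6_control 2, arf2-6_control 3 or arf2-6_IAA 1, and the other 8 omissions ended it. *petL*, its neighbour in the unit, differed by 0.42 on average (SE 0.22, limma adjusted p = 0.219).

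*petB*, the gene of cytochrome b6, is the fourth member of the *psbB* unit. It read 12.05, 12.47 and 12.11 on the WT_control arrays, 12.07, 12.21 and 11.99 with IAA, 12.38, 12.50 and 12.81 on the arf2-6_control arrays and 12.56, 12.69 and 12.75 with IAA. Only WT_control 2 lay within the mutant range. The difference with IAA was 0.58 (SE 0.13, limma adjusted p = 0.0241), a 1.49-fold difference, and the averaged one 0.47 (SE 0.09, limma adjusted p = 0.00819). Leaving out any of the 6 IAA arrays ended the call with IAA. *petD*, the gene of subunit IV and the last of the unit, had the same averaged size, 0.47, with a larger error (SE 0.25, limma adjusted p = 0.231). Thus 4 of the 5 genes of the *psbB*-*psbT*-*psbH*-*petB*-*petD* unit were called with IAA, where 2.93% of all tested probe sets were called higher. No other unit gave as many calls or holds as many of the genes studied. Genes of 1 unit share transcripts, so these calls are not independent. *petA*, the gene of cytochrome f, and *petN*, of a small subunit, differed by 0.31 and 0.36 on average and were not called (limma adjusted p = 0.069 and 0.449).

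The ATP synthase genes were not called with IAA, where their differences lay between 0.23 and 0.91, and 2 of the 6 were called over both treatments. *atpA*, the gene of the catalytic head's alpha subunit, read 10.10, 11.17 and 10.26 on the WT_control arrays, 10.21, 10.95 and 10.05 with IAA, 10.88, 11.08 and 11.49 on the arf2-6_control arrays and 11.06, 11.11 and 11.44 with IAA. *atpH*, the gene of the membrane ring subunit, read 9.43, 10.20 and 10.06 on the WT_control arrays, 9.32, 10.05 and 9.54 with IAA, 10.01, 10.54 and 10.94 on the arf2-6_control arrays and 10.12, 10.27 and 10.51 with IAA. For both genes array 2 was the highest of each wild-type group and lay within the mutant range. The averaged differences were 0.72 for *atpA* (SE 0.21, limma adjusted p = 0.0386) and 0.63 for *atpH* (SE 0.19, limma adjusted p = 0.0424). The call of *atpA* held only without WT_control 2, WT_IAA 2 or arf2-6_control 2, and that of *atpH* only without WT_control 2, WT_IAA 2 or arf2-6_control 1. *atpF* and *atpI*, of the same unit, had averaged differences of 0.83 and 0.41, and *atpB* and *atpE*, which form a unit of their own, 0.43 and 0.35. None of these 4 was called, with limma adjusted p from 0.0615 (*atpE*) to 0.374 (*atpI*).

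*rbcL* read 6.80, 8.72 and 7.62 on the WT_control arrays, 7.03, 7.78 and 7.70 with IAA, 8.88, 8.28 and 8.79 on the arf2-6_control arrays and 8.79, 8.55 and 8.86 with IAA. The IAA-treated groups did not overlap, while WT_control 2 lay among the mutant arrays and WT_control 1 almost 2 log2 below it. The averaged difference was 1.08 (SE 0.27, limma adjusted p = 0.0221), a 2.12-fold difference. The difference with IAA alone, 1.23 (SE 0.39), was not called (limma adjusted p = 0.0757). The averaged call ended without WT_IAA 1, arf2-6_control 1, arf2-6_control 3, arf2-6_IAA 1 or arf2-6_IAA 3.

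Without IAA, no gene of the 33 was called between the genotypes (limma), although 32 of 33 differences were above 0, against 53.2% of all tested probe sets. The exception was *petN* at -0.03 (SE 0.41). In this comparison 0.858% of all tested probe sets were called in either direction. An unadjusted p under 0.05 was found for 13 of the 33 genes, with no share of all tested probe sets to set beside it. The median difference was 0.42 log2. The lowest p belonged to *psaC*, at 1.07 (SE 0.24, limma adjusted p = 0.0636), followed by *petG* at 1.61 (SE 0.47, limma adjusted p = 0.133). The groups did not overlap for 5 genes, *psaC*, *petG*, *psbE*, *psbF* and *psbN*, against 7.23% of all tested probe sets. The spread between replicates was wider in the controls, with a median SD over the genes of 0.41 in WT_control and 0.34 in arf2-6_control, than with IAA, at 0.24 and 0.20. The fit pools this spread over the groups, so each gene had the same SE in both comparisons. The unadjusted limma p of *psaC* was 0.000892 here, below that of *psbH* with IAA, 0.00347, which was called. The adjustment depends on all tested probe sets, of which 122 were called without IAA and 1249 with it. With 1 array omitted the count stayed at 0 or became 1, *psaC* without WT_control 3 (limma adjusted p = 0.0361) or *petG* without arf2-6_control 2 (limma adjusted p = 0.0351).

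IAA itself changed none of the 33 genes past the threshold in either genotype (limma), where 8.40% of all tested probe sets were called in the wild type and 8.51% in *arf2-6*. In the wild type 2 of the 33 had an unadjusted p under 0.05, and in *arf2-6* none had, again with no share of all tested probe sets. In the wild type 10 of 33 differences were above 0, against 48.7% of all tested probe sets, and the median was -0.11 log2. The lowest p was that of *psbN*, at -0.38 (SE 0.15, limma adjusted p = 0.198), and the next that of *psbB*, at -0.64 (SE 0.28, limma adjusted p = 0.237). Leaving out WT_control 1 made the fall of *psbB* a call (-0.96, limma adjusted p = 0.0437), and leaving out WT_IAA 2 did so for *psbN* (-0.56, limma adjusted p = 0.0354). In *arf2-6*, 19 of 33 differences were above 0, against 44.1% of all tested probe sets, with a median of 0.06. That direction was not stable either: 5 were above 0 with a covariate from control probe sets, the 3′ minus 5′ difference described below (median -0.16), 12 with array weights, 13 without arf2-6_control 1, 14 without arf2-6_control 2 or without arf2-6_IAA 3, and 28 without arf2-6_control 3 (median 0.21). In the wild type, 19 were above 0 without WT_control 2 (median 0.02), 17 with array weights and 15 with the covariate (median -0.02). The lowest p in *arf2-6* was that of *atpI*, at -0.68 (SE 0.41, limma adjusted p = 0.419). Standard errors ran from 0.08 to 0.59 log2 over the genes, so small changes could not be resolved for the more variable genes.

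**Figure D4:**
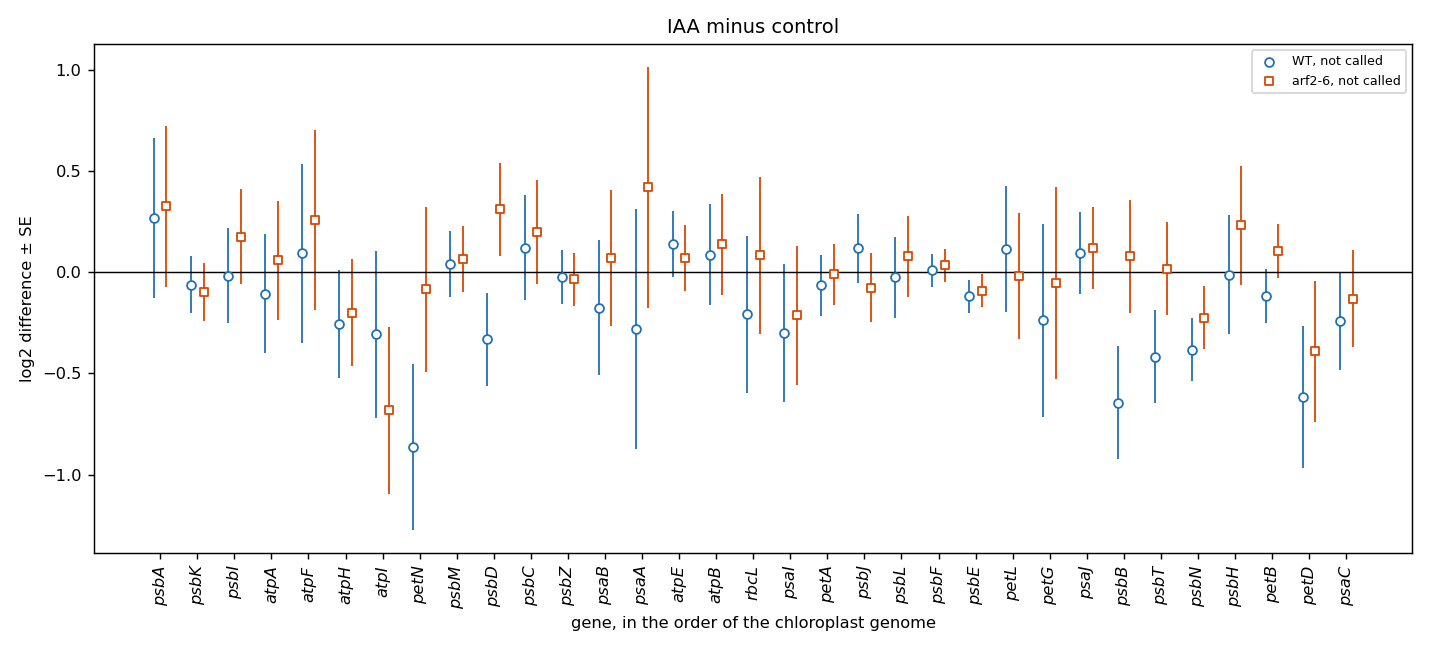
Difference in log2 signal between IAA-treated and control seedlings for the 33 genes, in their order along the chloroplast genome, in the wild type (circles) and *arf2-6* (squares), with bars of ± 1 standard error. No difference passed the threshold; the medians were -0.11 in the wild type and 0.06 in *arf2-6*.

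The IAA response did not differ detectably between the genotypes for any of the 33 genes. In the interaction (the response of *arf2-6* to IAA less the wild-type response) none was called and none had an unadjusted p under 0.05 (limma adjusted p of 1 for all 33), where 0.113% of all tested probe sets were called. Of the 33 values 27 were above 0, against 44.7% of all tested probe sets, with a median of 0.10 log2 and a range of -0.37 (*atpI*) to 0.78 (*petN*). The lowest p was that of *psbD*, at 0.64 (SE 0.33). The 7 calls with IAA and the 0 without it are therefore not shown to differ. The direction of the median was not stable. With array weights 9 of the 33 values were above 0 (median -0.06), with the 3′ minus 5′ covariate 10 were (median -0.10), and without WT_control 2 it was 16 (median -0.01).

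The other chloroplast-encoded genes were higher in *arf2-6* as well. These 35 tested probe sets, mainly of ribosomal proteins, RNA polymerase and the NDH complex, gave 6 calls with IAA and 19 over both treatments, all higher. Of all tested probe sets, 2.93% were called higher with IAA and 7.15% over both treatments. Their median differences were 0.73 with IAA and 0.66 on average, beside 0.58 and 0.47 for the photosynthesis genes, and the 2 sets were not tested against each other. On the 12 arrays their median ran from -0.69 to 0.66, in step with that of the photosynthesis genes. The 9 tested probe sets that carry the symbol of a mitochondrial gene, a set chosen after the files were opened, had differences from -0.13 to 0.29 with IAA (median 0.00) and from -0.10 to 0.18 on average (median 0.03). There were 18 such probe sets, and those not tested lay at the floor on every array. Of the tested ones, *nad4L* and *nad5* differed by exactly 0.00 with IAA, as happens when both groups lie at the floor. *nad1* had more than 1 of the 9. This set therefore cannot show that mitochondrial transcripts were unchanged.

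**Figure D5:**
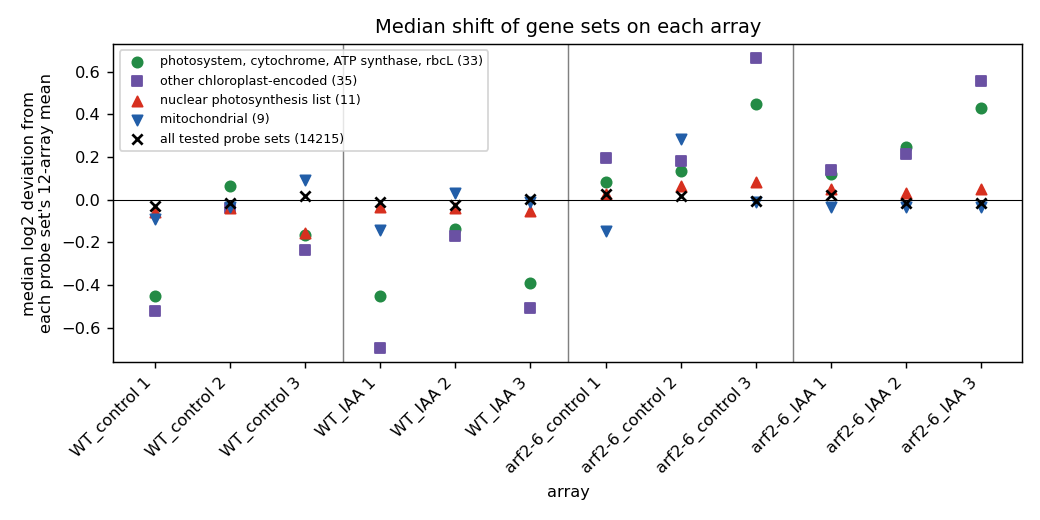
Median over each gene set of the log2 deviation from each probe set's 12-array mean, on each of the 12 arrays, for the 33 photosynthesis genes, the other chloroplast-encoded genes, nuclear photosynthesis genes, mitochondrial genes and all tested probe sets (numbers of probe sets in the key). The 2 chloroplast sets move together, below or near 0 on the wild-type arrays and above it on the *arf2-6* arrays, while the nuclear set stays between -0.15 and 0.08.

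Nuclear genes of the same complexes were measured by few probe sets. A textbook list of 58 nuclear genes of the photosystems, the electron carriers, the ATP synthase, Rubisco and the light-harvesting antennae had 11 single-gene probe sets, all tested. Most of the 11 lay higher in *arf2-6*: 9 differences were above 0 with IAA, against 49.0% of all tested probe sets. Averaged, 10 were, against 52.4%. With IAA the groups did not overlap, all higher, for 3 of the 11, against 17.8% of all tested probe sets. In that comparison 1 of the 11 was called higher in *arf2-6* and none lower, and the median difference was 0.08 log2. Of all tested probe sets, 2.93% were called higher there and 5.86% lower. The called gene of the list was *ATPC1*, which encodes the gamma subunit of the chloroplast ATP synthase, at 0.43 (SE 0.10, limma adjusted p = 0.0259). Over both treatments 2 of 11 were called higher, against 7.15% of all tested probe sets, and the median was 0.15. They were *ATPC1* at 0.36 (SE 0.07, limma adjusted p = 0.00745) and *PETM*, of a small subunit of the cytochrome b6f complex, at 0.19 (SE 0.05, limma adjusted p = 0.0244). These sizes cannot be set directly beside those of the chloroplast genes, and the difference was not tested. All 11 but *LHCB4.3* and *ATPC2* had high signals, with no group mean under 11.65 log2, and *ATPC2* lay at or near the floor. Among the chloroplast genes, the 9 with a mean signal of 11 log2 or more, a split chosen after seeing the data, had a median averaged difference of 0.31, and the 24 below it one of 0.65. On the arrays the median of the nuclear list ran from -0.15 to -0.03 in the wild type and from 0.02 to 0.08 in *arf2-6*.

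Of 8 nuclear genes for the plastid RNA polymerases and sigma factors, only *RPOTMP*, which encodes an RNA polymerase found in mitochondria and plastids, had a single-gene probe set. It was at the floor on every array of 3 groups and at 5.87 ± 0.11 (SD, n = 3) in arf2-6_IAA. It passed the filter on low signals only through that group, so no test of it is given. Markers of another cell type also moved with genotype. Of 7 root hair genes, 2 were measured, the expansins *EXPA7* and *EXPA18*, and both were lower in *arf2-6* with IAA, by -0.96 (SE 0.21, limma adjusted p = 0.0182) and -1.54 (SE 0.25, limma adjusted p = 0.00551). The median of the 2 relative to their own means was 0.02 to 0.98 on the wild-type arrays and -0.90 to -0.12 on the *arf2-6* arrays. The part of these differences in the chloroplast results was not tested.

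A measure of RNA integrity or labelling also varied between arrays and moved with some of the genes. The array carries control probe sets for the 3′ and the 5′ end of the same transcripts, and the 3′ minus 5′ log2 difference, averaged over 6 such pairs, grows as fewer signals reach the 5′ end. It was 0.41 to 0.59 in WT_control, 0.51 to 0.62 in WT_IAA, 0.45 to 0.67 in arf2-6_control and 0.42 to 0.49 in arf2-6_IAA. All 3 arf2-6_IAA arrays thus lay below all 3 WT_IAA arrays, while the control groups overlapped. Within groups, in a fit added after the data had been seen, 6 of the 33 genes had a called negative slope on this difference and none a positive one, where 5.09% of all tested probe sets had a called negative slope and 4.88% a called positive one. The slope was below 0 for 28 of the 33, against 43.8% of all tested probe sets.

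The steepest slope among these genes was that of *psaA*, at -10.46 log2 per unit of the 3′ minus 5′ difference (SE 0.92, limma adjusted p = 0.00425), and it had the lowest p of all 14215 tested probe sets. In the arf2-6_control group, the difference was 0.51, 0.67 and 0.45 on arrays 1, 2 and 3, and *psaA* read 9.80, 8.30 and 10.67. In WT_control it was 0.52, 0.41 and 0.59, and *psaA* read 8.35, 9.88 and 8.08. In each control group the arrays thus ranked in opposite order by the 2 measures. The other called slopes were those of *atpF* (-7.56), *psbH* (-5.05), *atpB* (-3.91), *psbD* (-3.55) and *psbT* (-3.29), with limma adjusted p from 0.00881 to 0.0327. *psaC* and *psbE* had slopes of -0.92 and -0.01 that were not called (limma adjusted p = 0.682 and 0.99). The number of called slopes was 0 without WT_control 2 and 1 without WT_control 3, so it rests on those arrays, and *psaA* alone then had a limma adjusted p of 0.0555 without WT_control 2.

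With the 3′ minus 5′ difference as a covariate, 4 of the 7 genes stayed called with IAA, namely *psaC* (1.09), *psbB* (1.098), *psbH* (0.58) and *psbD* (0.63). The difference of *psbH* fell from 1.08 and that of *psbD* from 0.99, while *psaC* moved from 1.18. *petG* (1.41, limma adjusted p = 0.106), *psbT* (0.56, limma adjusted p = 0.0658) and *petB* (0.42, limma adjusted p = 0.0546) were no longer called. Without IAA, 3 genes became called under this covariate, *psbH* (1.04, limma adjusted p = 0.00272), *psaA* (1.24, limma adjusted p = 0.0095) and *atpF* (1.05, limma adjusted p = 0.0166). Averaged over treatments, 20 genes were called, beside 16 without the covariate.

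A pair of control arrays, WT_control 3 and arf2-6_control 2, had the highest 3′ minus 5′ differences of their groups and deviated alike for most of the genes. Against the mean of the other 2 arrays of the group, 16 of the 33 genes were lower on both and 8 were higher on both. The likeness was not particular to these genes. Deviations of the 2 arrays from their group means correlated at 0.63 over all tested probe sets and at 0.45 over the 33 genes. The 0.63 was the highest between any 2 arrays of different groups, and the pair was singled out in these same data. Its likeness and the calls without it are therefore description only. *atpF* was lower by -1.12 and -1.26, *psaA* by -1.04 and -1.93 and *psbC* by -0.86 and -0.74. *petN* was higher by 1.72 and 0.33, *petD* by 1.29 and 0.32 and *atpI* by 1.60 and 0.58. *petG* went opposite ways, at 0.79 and -1.49. With both arrays left out, *petG* was called without IAA (2.37, limma adjusted p = 0.0394). The averaged calls of *psaB*, *psaI*, *psbK*, *atpA* and *atpH* then ended, with limma adjusted p from 0.0502 (*psbK*) to 0.0983 (*atpA*). Those of *psbC* (limma adjusted p = 0.0117), *psaA* (limma adjusted p = 0.037) and *petA* (limma adjusted p = 0.0422) were gained.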

How the data were processed

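The authors deposited log2 signals, 1 per probe set and array; their summarisation and scaling are not given in the sources used here, and the scaling was kept. The values are floored at a signal of 50, so differences of dim genes are understated. Of 13513 single-gene probe sets in the platform annotation, 13436 matched the TAIR10.1 gene table, used for names and gene order only. The 33 genes and the lists were chosen with earlier results of these data known.

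All 12 arrays entered 1 limma 3.58.1 fit (R 4.3.3) of group means (residual degrees of freedom 8, mean-dependent variance prior, two-sided tests). The 64 control probe sets and the 8531 probe sets at the lowest value throughout were left out, leaving 14215. A call needed a Benjamini-Hochberg adjusted p under 0.05. The fit was run on simulated data with independent noise on each array. The real arrays shifted together over many genes, so that run does not vouch for the calls made here. Every gene called in a comparison is named, as is the gene with the lowest p where none was called, and array values are given for each called gene. Values are given with SE of the difference or SD of a group of 3 arrays; the number of arrays limits the precision. A list of 11 plastid RNA-processing genes had no single-gene probe set here. Replicate numbers did not pair the arrays across genotypes, where 3 of 12 same-numbered pairs correlated over 0.1. Within a genotype 4 of 6 same-numbered pairs did, against 2 of 12 with other numbers. Over the photosynthesis genes, same-numbered wild-type arrays of control and IAA correlated at 0.53, 0.82 and 0.72 (numbers 1, 2 and 3). Same-numbered *arf2-6* arrays correlated at -0.05, 0.06 and 0.63, and other-numbered pairs within a genotype ran from -0.70 to 0.35. The main fit did not model this likeness and took the arrays as independent. Tables and plots used Python 3.11.15. Alternatives are given in the closing section.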

Additional observations from a re-analysis of the deposited data

How the results depend on the processing

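No called gene changed direction under any alternative run, but the medians over the 33 genes for IAA and the interaction did. Array weights gave 0.00 (wild-type response), -0.05 (mutant response) and -0.06 (interaction), and the covariate -0.02, -0.16 and -0.10. With 1 array left out the wild-type response ran from -0.19 to 0.02, the mutant response from -0.06 to 0.21 and the interaction from -0.01 to 0.26. Counts of the 33 genes called were, with IAA, 1 with no filter on low signals, 16 with array weights and 4 with the 3′ minus 5′ covariate (7 as reported), and 0 to 8 with 1 array left out. Without IAA they were 1 with the lowest 50% left out, 1 with a robust variance prior, 2 with array weights, 2 with the replicate block, 1 without WT_control 3 and arf2-6_control 2, 3 with the covariate (0 as reported), and 0 to 1 with 1 array left out. Averaged over treatments they were 6 with no filter, 24 with array weights and 20 with the covariate (16 as reported) and 5 to 21 with 1 array left out. IAA in the wild type gave 0 to 1. Genes with a called slope numbered 0 to 7 with 1 array left out. The filter changes how many probe sets share the adjustment; the cause of the other shifts was not tested.

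All probe sets called came, for IAA in the wild type, to 622 when only the compared arrays were fitted (1194 as reported), and to 854 to 1276 with 1 array left out. For IAA in *arf2-6* they came to 1862 with array weights (1210), and 756 to 1343. Without IAA the genotypes gave 30 with no filter, 479 with array weights, 235 with the replicate block, 559 without the 2 control arrays, 2 with only the compared arrays and 218 with the covariate (122), and 23 to 477. With IAA they gave 648, 3128 and 1998 with no filter, array weights and without the 2 control arrays (1249), and 325 to 1536. Averaged, array weights gave 3985 and omitting the 2 arrays 3423 (2256), and 1401 to 3049. The interaction gave 3 with median centring, 0 with the lowest 50% left out, 8 with a constant and 5 with a robust variance prior, 6 with the replicate block, 6 without the 2 control arrays and 3 with the covariate (16), and 2 to 46. The replicate numbers mark no stated shared origin, and 7 of 12 arrays correlated best with their own number; within a genotype the median correlation of same-numbered arrays was 0.29, against -0.08 for other numbers. With the replicate block 9 of the 33 genes were called with IAA, where *psbH* was lost (limma adjusted p = 0.0691), and 17 on average, where *psbF* was lost (limma adjusted p = 0.0509). With arrays of 1 genotype and number as a random block, added after seeing the data, 7 genes were called with IAA and 14 on average, where *psbF* (limma adjusted p = 0.0739) and *atpH* (limma adjusted p = 0.0556) were lost. This block took 1 correlation, 0.19, for all probe sets. Over the photosynthesis genes same-numbered arrays correlated at 0.53 to 0.82 in the wild type and -0.05 to 0.63 in *arf2-6*. The block therefore cannot show how far pairing bears on the calls of these genes.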
